A study of Homo sapiens with 8 samples.

Results

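The prostaglandin genes followed here were picked by symbol as a pathway list, with earlier results of these data already known. They are PLA2G4A, PTGS1, PTGS2, PTGES, PTGIS, HPGD, PTGER2, PTGER4 and PTGFR, 9 of the 27696 genes in the count table. Prostaglandins are short-lived lipid signals made from arachidonic acid. A phospholipase frees this fatty acid from the membrane, a cyclooxygenase turns it into prostaglandin H2, and a terminal synthase makes the product, such as prostaglandin E2 (PGE2) or prostacyclin. The products leave the cell, act on G protein-coupled receptors of the same or neighbouring cells, and are inactivated after uptake. In fibroblasts PGE2 is known to act through EP2 and EP4, which raise cyclic AMP, whereas the FP receptor for prostaglandin F2α signals through calcium.

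The RNA came from normal IMR90 cells, human embryonic lung fibroblasts of 1 cell strain, that carried no transgene. For 3 days they had received medium taken from IMR90 ER:RAS fibroblasts, in which 4-hydroxytamoxifen (4-OHT) switches on an oncogenic RAS fused to the hormone-binding part of the estrogen receptor and the cells enter senescence. The 4 groups, D0, D4, D7 and D10, stand for donors at day 0, 4, 7 or 10 of 4-OHT, so D0 received medium from donors at the start of induction, and each group has 2 libraries, 1 from each of 2 independent experiments. According to the methods the donor medium was serum-free during conditioning and received a low level of serum before use, so every group, D0 included, was exposed to conditioned medium.

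Total counts ran from 11708193 to 13395912 per library. ESR1, part of the donor transgene, had 0 to 4 counts, and HRAS had 33.2 to 66.1 CPM (CPM, counts relative to the TMM-adjusted library size). All 10 fibroblast markers reached 1 CPM in at least 1 library, with a summed level of 33165 to 46849 CPM at D0 and 10131 to 34738 CPM at D10, where experiment 2 gave the lowest sum of all libraries. With the replicate block PDGFRB and DCN, 2 of these 10 genes, fell at D10, where 2.45% of all tested genes were called lower. By edgeR without the block 0 of the 10 were called, beside 0.29% of all genes. The median log2 fold change of the list was -0.73, against 0.00 over all genes. The summed leukocyte markers reached at most 3.69 CPM and the megakaryocyte markers 0.316 CPM, and PTPRC, EPCAM and PECAM1, which define leukocytes, epithelium and endothelium, did not pass the filter on low counts. Epithelial markers summed to 20.6 to 33.0 CPM, mostly KRT8, and endothelial ones to 42.5 to 122 CPM, mostly TEK. The mast cell sum of 19.4 to 46.4 CPM was nearly all KIT. Whether these levels have a part in any difference given here was not tested. In bulk RNA, fewer cells of a type and less RNA per cell cannot be told apart.

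The members with a called difference were PTGS2, the inducible cyclooxygenase, and 2 receptor genes with opposite directions. In D10 libraries PTGS2 and PTGFR were higher and PTGER2 was lower than in D0 libraries of the same experiment. Each of these was called by edgeR when its test took account of the experiment (the replicate block). DESeq2, fitted by group without such a block, called each as well. None was called by edgeR's test on groups alone, which is the test that "on groups" means below. To show the DNA in front of these 3 genes, the 250 bases before the start of transcription are printed for each, 5′ to 3′ on the coding strand, from RefSeq on GRCh38.p14. Capitals mark exact matches, on either strand, to 4 motifs. These are TATAA (the core of a TATA box), TGACG (a cyclic AMP response element half-site), GCAAT (a C/EBP half-site) and the NF-kB consensus. The consensus was written as GGGRNNYYCC, where R is A or G, Y is C or T and N is any base.
PTGS2 (chr1:186680424-186680673, minus strand): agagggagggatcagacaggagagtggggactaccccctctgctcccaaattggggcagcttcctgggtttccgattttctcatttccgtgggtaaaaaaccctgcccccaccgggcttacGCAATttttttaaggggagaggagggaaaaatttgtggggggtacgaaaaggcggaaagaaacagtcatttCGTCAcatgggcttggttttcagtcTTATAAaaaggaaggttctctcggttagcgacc
PTGER2 (chr14:52314062-52314311, plus strand): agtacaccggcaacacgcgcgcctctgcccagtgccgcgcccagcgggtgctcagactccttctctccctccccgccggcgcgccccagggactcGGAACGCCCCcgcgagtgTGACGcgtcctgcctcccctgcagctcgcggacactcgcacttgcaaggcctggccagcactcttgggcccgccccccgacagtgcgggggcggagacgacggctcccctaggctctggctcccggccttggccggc
PTGFR (chr1:78490724-78490973, plus strand): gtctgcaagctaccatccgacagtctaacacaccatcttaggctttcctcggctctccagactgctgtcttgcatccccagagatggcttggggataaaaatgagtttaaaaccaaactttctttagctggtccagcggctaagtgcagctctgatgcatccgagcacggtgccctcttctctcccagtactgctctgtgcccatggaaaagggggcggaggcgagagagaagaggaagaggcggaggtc
The PTGS2 window held 3 of the 4 motifs, GCAAT from 129 to 125 bases before the start, TGACG on the opposite strand from 58 to 54, and TATAA from 32 to 28, where an overlapping match lies on the opposite strand from 33 to 29. The PTGER2 window, with a GC content of 74%, held TGACG from 137 to 133 and a match to the NF-kB consensus on the opposite strand from 155 to 146. The PTGFR window held no match to these letters. Among 35116 promoter windows of this length, 18.9% held TATAA, 21.2% TGACG, 21.3% GCAAT and 9.96% the NF-kB consensus. These matches describe the letters and are not evidence of binding. Near matches were not marked, so the lack of an NF-kB match in the PTGS2 window does not show that it has no NF-kB site.

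Over all 13798 genes that passed a filter on low counts, 0.29% were called for D10 against D0 by edgeR's quasi-likelihood test on groups (Benjamini-Hochberg adjusted p under 0.05), and 0 of the 7 members that passed the filter were among them. At an unadjusted p under 0.05 there were 5 of the 7 members, 4 higher and 1 lower, beside 7.94% of all genes. With the replicate block 3 members were called beside 4.99% of all genes, 2 of them higher (2.54% of all genes) and 1 lower (2.45%), and DESeq2 called 3 beside 2.83%. In 5 members both D10 libraries lay above both D0 libraries and in 2 both lay below, where 15% and 16% of all genes did so. The median log2 fold change of the 7 members was 0.91, against 0.00 over all genes. The remaining members, PTGIS and HPGD, did not pass the filter.

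**Figure D1:**
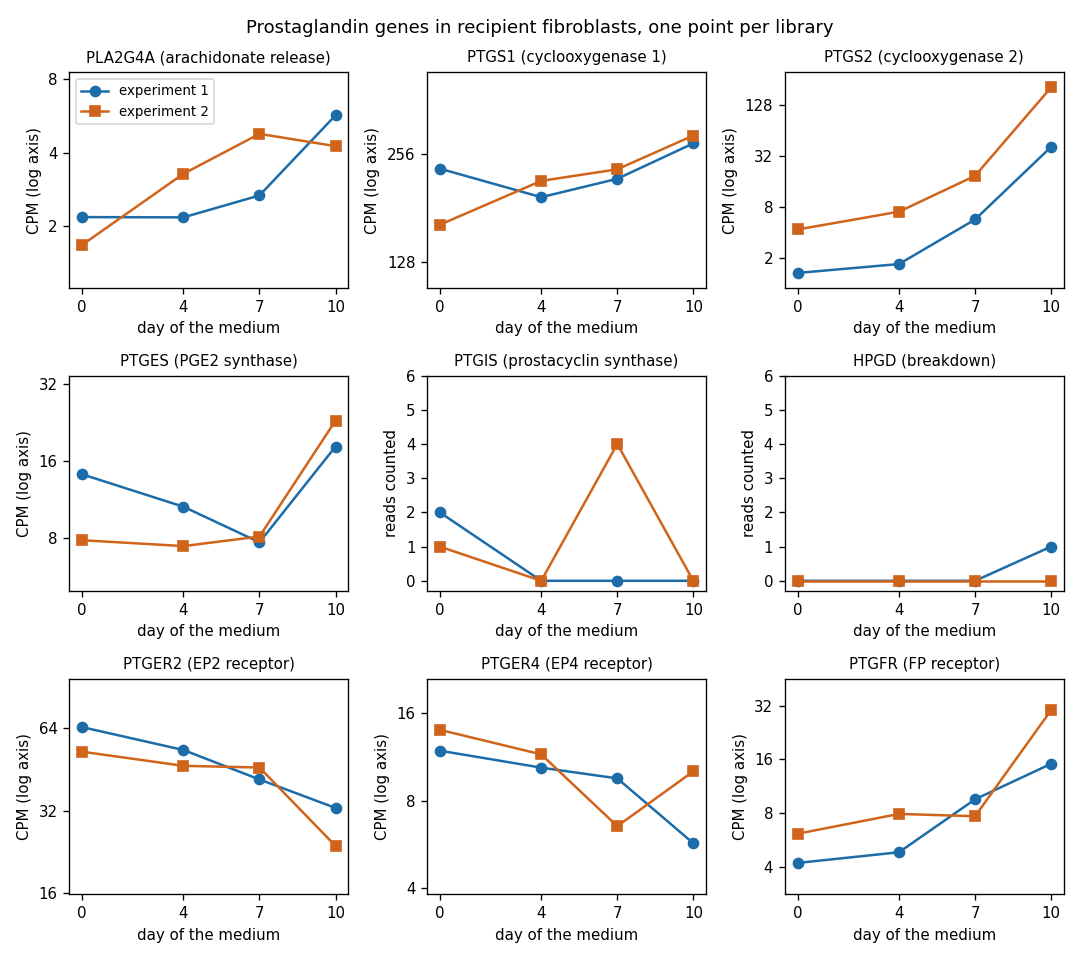
Level of each prostaglandin gene (vertical axis, CPM on a log axis; reads counted for PTGIS and HPGD) against the day of the medium, 1 point per library and 1 line per experiment. PTGS2 is higher and PTGER2 lower at every step in both experiments, while PTGIS and HPGD stay at 4 reads or fewer.

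The release of arachidonic acid was represented by PLA2G4A, the cytosolic phospholipase A2 (chromosome 1, 186828953 to 186988981, plus strand; positions of genes are those of GENCODE 29 on GRCh38). From D0 to D10, in the order D0, D4, D7, D10 used for all such series, its level in CPM was 2.18, 2.17, 2.67 and 5.70 in experiment 1, and 1.67, 3.28, 4.78 and 4.26 in experiment 2. Both D10 libraries lay above both D0 libraries, but D7 of experiment 2 was above D10 of the same experiment. The fitted log2 fold change of D10 against D0 was 1.37 ± 0.44 (SE), with an edgeR adjusted p of 0.339, or 0.0941 in the blocked fit, so the difference was not called. These levels rest on 23 to 72 reads per library.

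PTGS1, the cyclooxygenase that most cells make at a steady level (chromosome 9, 122370530 to 122395703, plus strand), was the most abundant member. It had 234, 194, 219 and 275 CPM in experiment 1, and 163, 216, 233 and 289 CPM in experiment 2. D10 was highest in both experiments, and the 2 experiments differed more at D0 than at any later day. The log2 fold change of D10 against D0 was 0.51, with a 95% interval of -0.05 to 1.07 and an edgeR adjusted p of 0.718 (0.200 with the replicate block). Within experiments it was 0.23 and 0.83.

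PTGS2, the cyclooxygenase known for its induction by inflammatory signals (chromosome 1, 186671791 to 186680427, minus strand), began among the lowest of the detected members. From D0 to D10 it had 16, 22, 75 and 520 reads in experiment 1 and 60, 95, 247 and 2634 in experiment 2, that is 1.34, 1.71, 5.73 and 41.2 CPM in the former and 4.37, 7.08, 18.8 and 208 CPM in the latter. Within each experiment every medium gave a higher level than the one before it, a pattern seen in 1.33% of all genes. The experiments differed throughout, with experiment 2 at 3.02 times experiment 1 at D0 and 5.03 times at D10 on the scale of log2 CPM with a prior count of 2, so D4 and D0 overlapped and D7 of experiment 1 was below D4 of experiment 2, whereas all D10 libraries were above all others. The D10 library of experiment 2, with the highest PTGS2, was also the one with the lowest sum of fibroblast markers; experiment 1 gave 41.2 CPM of PTGS2 at a marker sum of 34738 CPM.

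From D0 to D10 PTGS2 was 27.6-fold higher in experiment 1 and 46.0-fold higher in experiment 2, on the scale of log2 CPM with a prior count of 2. The fit on groups gave a log2 fold change of 5.43 ± 1.12 (SE) with an edgeR adjusted p of 0.100, and the replicate block gave 5.33 ± 0.22 with 2.9e-05. DESeq2 gave an adjusted p of 4.8e-04. Without the D10 library of experiment 2 the log2 fold change in the fit on groups was 3.83 and without the D0 library of experiment 2 it was 6.52; both were without a call.

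With the replicate block, PTGS2 was the only member called before D10. At D7 against D0 its log2 fold change was 2.08 on groups, with an edgeR adjusted p of 1. The blocked fit gave 2.14, where the adjusted p was 0.00667 and 1.25% of all genes were called. The 2 experiments gave 1.98 and 2.06 within themselves. From D7 to D10 the blocked log2 fold change was 3.19, with an adjusted p of 3.4e-04 by edgeR where 0.319% of all genes were called; on groups the adjusted p was 1.0. At D4 against D0 the blocked value was 0.59, with a 95% interval of 0.02 to 1.16 and an edgeR adjusted p of 0.589. The comparisons with D0 share the D0 libraries and are given side by side only.

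Divided by exon length, the 2 cyclooxygenases could be set against each other. PTGS2 made up 0.627%, 0.956%, 2.80% and 14.1% of the summed cyclooxygenase CPM per kb in experiment 1 and 2.86%, 3.48%, 8.14% and 44.1% in experiment 2. PTGS1 per kb was 158 and 33.9 times PTGS2 per kb at D0 and 6.07 and 1.27 times at D10, and so remained the more abundant transcript in every library. The sum of both went from 40.6 and 28.9 CPM per kb at D0 to 55.3 and 89.3 at D10. Lengths are the union of all annotated exons, so these levels depend on which exons the cells use.

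**Figure D2:**
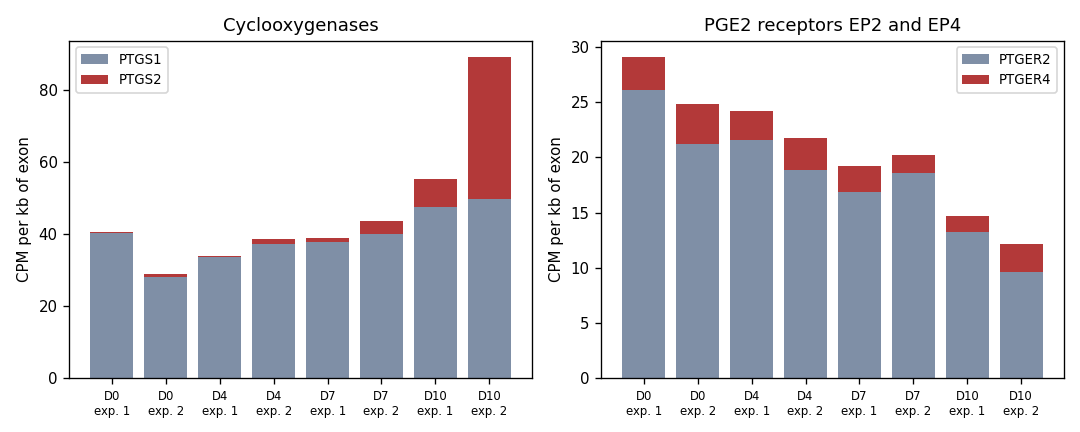
Stacked bars of CPM per kb of exon in each library, for the cyclooxygenases PTGS1 and PTGS2 (left) and the PGE2 receptors PTGER2 and PTGER4 (right), without error bars since each bar is 1 library. The PTGS2 part of the cyclooxygenase bar is 44.1% in the D10 library of experiment 2, and the receptor bars are lowest at D10.

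PTGES encodes the inducible microsomal enzyme that makes PGE2 from prostaglandin H2 (chromosome 9, 129738331 to 129753047, minus strand). It had 14.2, 10.6, 7.71 and 18.3 CPM in experiment 1, and 7.86, 7.46, 8.13 and 23.1 CPM in experiment 2. D10 was above every other library, and the media before it gave no common direction, since experiment 1 went down to D7 and experiment 2 stayed between 7.46 and 8.13 CPM. The log2 fold change of D10 against D0 was 0.91 ± 0.34 (SE), with an edgeR adjusted p of 0.492 (0.110 with the replicate block), and 0.36 and 1.54 within the experiments. D10 against D7 gave 1.38 ± 0.35, with an edgeR adjusted p of 0.832 and 0.117 with the block, so neither was called.

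PTGIS, which makes prostacyclin (chromosome 20, 49503874 to 49568146, minus strand), was barely detected. It had 2 and 1 reads at D0, 4 reads in D7 of experiment 2 and 0 in the other 5 libraries. HPGD, the enzyme that begins the inactivation of prostaglandins (chromosome 4, 174490177 to 174523154, minus strand), had 1 read in D10 of experiment 1 and 0 in all other libraries. With both libraries of a group pooled, the limit that a count of 0 allows, taken as 3 reads, came to 0.114 to 0.119 CPM, by counting error only. No difference in either gene was detectable at this depth, and no fold was computed.

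Among receptors, PTGER2 encodes EP2 (chromosome 14, 52314305 to 52328606, plus strand). Its level was 64.6, 53.3, 41.6 and 32.8 CPM in experiment 1, and 52.6, 46.7, 46.0 and 23.8 CPM in experiment 2. Each later medium gave a lower level in both experiments, a pattern seen in 1.45% of all genes, and both D10 libraries were below every other library. The log2 fold change of D10 against D0 was -1.05 ± 0.24 (SE), with an edgeR adjusted p of 0.131. With the replicate block it was -1.05 ± 0.17 with an adjusted p of 0.00906, DESeq2 gave an adjusted p of 0.0182, and the experiments gave -0.98 and -1.14. The lower D10 level was 2.08-fold below D0 in the blocked fit.

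PTGER4 encodes EP4, the other receptor that raises cyclic AMP in response to PGE2 (chromosome 5, 40679498 to 40693735, plus strand). It had 11.9, 10.4, 9.55 and 5.70 CPM in experiment 1, and 14.0, 11.6, 6.53 and 10.1 CPM in experiment 2. Both D7 and both D10 libraries lay below both D0 libraries, but D10 of experiment 2 was above D7 of the same experiment. The log2 fold change of D10 against D0 was -0.72 with a 95% interval of -1.51 to 0.08, and was not called (edgeR adjusted p of 0.719, or 0.231 in the blocked fit). Summed per kb, EP2 and EP4 transcripts went from 29.1 and 24.8 CPM per kb at D0 to 14.7 and 12.2 at D10, and EP2 was 3.78 to 11.3 times EP4 across libraries with no common order by day.

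PTGFR encodes the FP receptor (chromosome 1, 78303884 to 78539749, plus strand; the RefSeq start shown above lies inside this annotated gene). It had 4.19, 4.81, 9.55 and 15.1 CPM in experiment 1, and 6.11, 7.90, 7.67 and 30.3 CPM in experiment 2. The D10 libraries were above all others, and in experiment 2 D7 was slightly below D4. The log2 fold change of D10 against D0 was 2.13 ± 0.43 (SE), with an edgeR adjusted p of 0.0947, and 2.10 ± 0.31 with an adjusted p of 0.00663 under the replicate block. DESeq2 gave an adjusted p of 4.6e-04, and the change was 3.52-fold in experiment 1 and 4.86-fold in experiment 2. Without the D10 library of experiment 2 the fit on groups gave 1.55 and without that of experiment 1 it gave 2.57, the latter with an edgeR adjusted p of 0.0394.

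Few differences of the members at D4 or D7 from D0 passed a test. At either day edgeR on groups called 0 of all 13798 tested genes, and so 0 of the 7 members. Among the members 0 had an unadjusted p under 0.05, and DESeq2 called 0 (0.377% of all genes at D4 and 0.848% at D7). The block called 0 members at D4, where it called 0.275% of all genes. Among all genes an unadjusted p under 0.05 was reached by 2.96% at D4 and 4.34% at D7. At D4 1 member, PTGER4, had both libraries below both D0 libraries and none had both above, where 12.6% and 9.73% of all genes did so. At D7 both libraries were above both D0 libraries for PLA2G4A, PTGS2 and PTGFR and below for PTGER2 and PTGER4, beside 13.7% and 15.2% of all genes. For D10 against D7, edgeR on groups called 0 of all 13798 tested genes, and so 0 members. DESeq2 called 0 members and 0.498% of all genes, and 4 members had an unadjusted p under 0.05 beside 3.54% of all genes. Both D10 libraries were above both D7 libraries in 4 members (PTGS1, PTGS2, PTGES and PTGFR; 13.7% of all genes) and below in PTGER2 (12.2%).

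**Figure D3:**
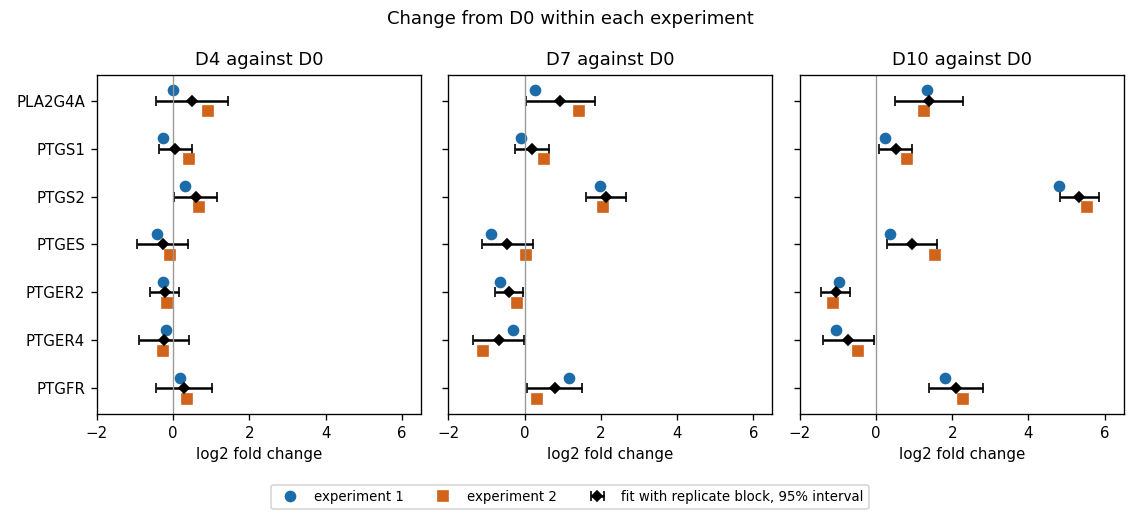
Log2 fold change from D0 (horizontal axis) of the 7 tested members at D4, D7 and D10, with the value within each experiment (circles, experiment 1; squares, experiment 2) and the fit with the replicate block (diamonds) with its 95% interval. At D10 PTGS2 stands at 5.33 and PTGFR at 2.10 in the blocked fit, and PTGER2 at -1.05.

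The rest of the pathway was followed through lists of related genes. Of 12 tested genes of arachidonate release, 1 rose and 1 fell at D10 with the replicate block and 0 were called on groups (3 at an unadjusted p under 0.05, and 1 by DESeq2); the list's median log2 fold change was -0.11. For this and the lists that follow, the shares over all genes at D10 were 2.54% higher and 2.45% lower with the block, 0.29% on groups, 7.94% at an unadjusted p under 0.05 and 2.83% by DESeq2. ACSL4, which attaches coenzyme A to arachidonic acid and so traps it in membranes, had 137 and 232 CPM at D0 and 372 and 1462 at D10. Its log2 fold change was 2.31 ± 0.70 (SE), with an edgeR adjusted p of 0.301 and 0.0065 with the block. LPCAT3, which inserts arachidonic acid into phospholipids, had 60.0 and 40.4 CPM at D0 and 33.9 and 20.9 at D10, a log2 fold change of -0.87 with an edgeR adjusted p of 0.530 and 0.00867 with the block. This value is uncertain, since EMG1 covers 65.6% of its exon bases on the opposite strand and the use of strand in counting is not given in the sources used here.

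Of 8 tested genes among the other prostanoid synthases, 1 rose with the block, 0 were called on groups, 2 had an unadjusted p under 0.05 and DESeq2 called 1, with a median of 0.05. The gene was AKR1B1, an aldose reductase that can also make prostaglandin F2α. It had 336 and 263 CPM at D0 and 1404 and 803 at D10, above D0 in both experiments. Its log2 fold change was 1.88 ± 0.44 (SE), with an edgeR adjusted p of 0.144 and 0.00229 with the block, while DESeq2 gave an adjusted p of 8.6e-04.

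Breakdown and transport were represented by 8 other tested genes, of which 1 rose and 1 fell at D10 with the block, 0 were called on groups or by DESeq2, and 1 had an unadjusted p under 0.05, with a median of 0.08. SLCO2A1, the transporter that takes prostaglandins up into cells, had 1, 4, 7 and 8 reads in experiment 1, and 3, 7, 21 and 39 reads in experiment 2. With 4 reads at D0 in all, its blocked adjusted p of 0.0138 by edgeR rests on few reads (0.275 on groups). AKR1C1, a reductase of the aldo-keto family, had 43.7, 17.5, 16.0 and 25.8 CPM in experiment 1, and 24.0, 9.17, 9.87 and 9.94 CPM in experiment 2. It was called lower with the block on every day (edgeR adjusted p of 0.0367, 0.0190 and 0.0210) and on no day on groups. Since 28.6% of its 50-base words occur in other genes, AKR1C2 first, its counts are uncertain.

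Of the other prostanoid receptors 3 passed the filter, and 1 rose at D10 with the block, 0 were called on groups, 2 had an unadjusted p under 0.05 and DESeq2 called 1. PTGIR, the prostacyclin receptor, had 1.09, 3.10, 2.67 and 4.91 CPM in experiment 1, and 1.75, 4.25, 6.83 and 8.20 CPM in experiment 2. All libraries of the later media were above both D0 libraries. The log2 fold change of D10 against D0 was 2.19 ± 0.55 (SE), with an edgeR adjusted p of 0.180 and 0.00677 with the block. PTGER1, the EP1 receptor, had 4 and 9 reads at D0 against 20 and 14 at D10 and missed the threshold (log2 fold change of 1.41). TBXA2R, the thromboxane receptor, had 42 and 27 reads at D0 against 31 and 12 at D10 and missed the threshold (log2 fold change of -0.68). PTGER3 and PTGDR2 had at most 1 and 3 reads in any library, and PTGFRN, a protein that binds the FP receptor, at most 3.

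**Figure D4:**
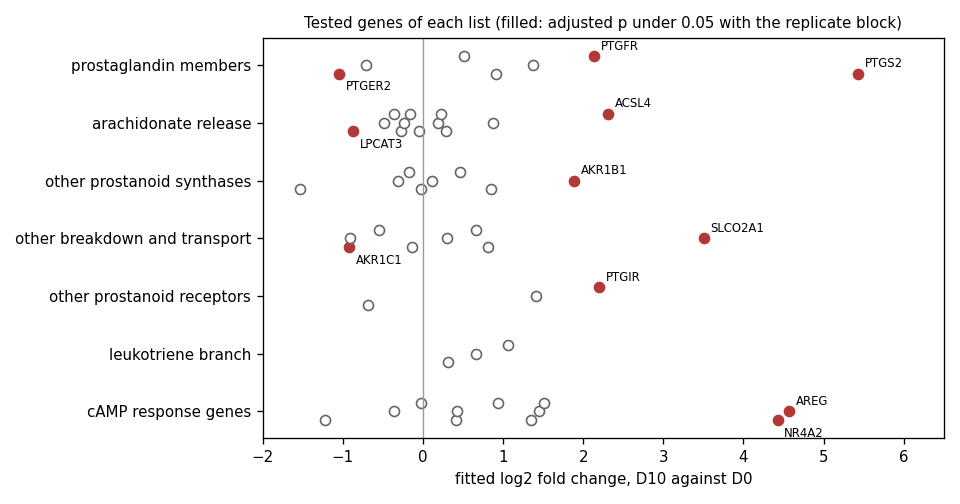
Fitted log2 fold change of D10 against D0 (horizontal axis, fit on groups) for each tested gene of the members and of 6 related lists; points are spread vertically within a row for legibility, and filled, named points had an adjusted p under 0.05 with the replicate block. PTGS2 lies farthest right, followed by AREG at 4.57 and NR4A2 at 4.43.

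By the pattern of change alone, over 6 changes from D0 (3 media in 2 experiments) and 12794 genes with a mean of at least 1 CPM, POU2F2 and CCL7 were most like PTGS2, with root mean square differences of 0.56 and 0.65 on the log2 scale. FAM196B and OGFRL1 were nearest to PTGFR (0.24 and 0.26), and SERINC2 and FHL2 to PTGER2 (0.10 and 0.12). The nearest genes were RFTN2 and PRR16 for PLA2G4A (0.09 and 0.26), HLA-K and DUSP28 for PTGS1 (0.07 and 0.13), MTHFD2L and EBF4 for PTGES (0.29 and 0.31), and PSPH and GTPBP8 for PTGER4 (0.15 and 0.15). PTGS2 thus had no neighbour as close as the other members had. The distance was not scaled to the size of the change, which was largest in PTGS2. It therefore does not show that the pattern of PTGS2 was more particular than that of other members.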

How the data were processed

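The deposited values are unnormalized counts per gene for 8 libraries, prepared by the authors from poly(A) RNA with a stranded kit. Their processing notes name STAR 2.5 and DESeq2 and the build GRCh38; the counting program, its annotation and its strand setting are not given in the sources used here. The table also holds 8 columns of normalized values that were not used. The header DO of 1 column was read as D0 replicate 1. Of the 27696 rows, 27588 (99.6%) matched GENCODE 29 by identifier, and promoter windows were matched by symbol (PTGIS had no entry).

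Counts were filtered with filterByExpr (13798 genes left), scaled with TMM and tested with edgeR 4.0.16 (glmQLFit, glmQLFTest, R 4.3.3) in 1 fit of all 8 libraries by group, with Benjamini-Hochberg adjustment over all tested genes at 0.05. The SE of a log2 fold change was its size over the square root of F. Log2 CPM within experiments used a prior count of 2. Alternatives were a replicate block in edgeR, DESeq2 1.42.0 by group without a block, and edgeR with DESeq2's size factors. Others were edgeR with other filters, with only the compared groups, and with each library left out. The replicate numbers pair the libraries, since they mark 2 independent experiments and same-numbered libraries deviated together in all 6 pairs of groups (r of 0.418 to 0.722; points are genes and so no independent replicates). Blocking lowered the common dispersion from 0.0792 to 0.0242. In simulated counts with 200 genes changed 4-fold between D10 and D0, among 13490 genes tested, edgeR recovered 67.5% with 0 false among 135 calls, the block 98% with 16 among 212, and DESeq2 96% with 2 among 194. Those counts were drawn from the blocked fit, with its dispersions and a difference between experiments, and only genes with higher counts were changed. The simulation thus takes the blocked model as true. It does not cover changes in genes with few reads. P-values on groups measure the spread between 2 experiments with 1 cell strain. With the block, they measure what remains once the difference between the experiments is taken out, that is, how far the changes differed between them.

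Named genes are the 9 members, the genes of 6 related lists called in any comparison on groups or with the block, the gene of each list with the largest change at D10, every other receptor with a read, and for each tested member the 2 genes nearest in pattern. Beyond this rule, SIK1 is named for its direction, and FOS, NR4A1 and DUSP1 for their difference between experiments. The members and lists were chosen with earlier results of these data known. Figures were drawn with Python 3.11.15.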

Additional observations from a re-analysis of the deposited data

How the results depend on the processing

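The direction of the 7 tested members in 4 comparisons was recomputed under the alternatives, which gave 392 values. Of these, 370 kept direction and side of the threshold, 13 kept direction and passed the threshold, and 9 changed sign. No value lost a call, since none was called on groups.

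The replicate block, the pairing by experiment, moved the number of genes called from 0 to 38 at D4, from 0 to 172 at D7, from 40 to 688 at D10 and from 0 to 44 for D10 against D7. The number of members called became 1 at D7, 3 at D10 and 1 for D10 against D7, from 0 in each, and 0 at D4. DESeq2 called 48, 117, 390 and 66 genes in the same order, and 3 members at D10. Without a filter on low counts 21, 93, 371 and 77 genes were called, and 2 members at D10 and 1 for D10 against D7. At D10, a filter of 10 counts in every library left 20 calls and a fit of the compared groups only 0. Leaving out 1 library gave 0 to 155 genes and 0 to 2 members at D10, the 155 genes and 2 members (PTGS2 and PTGFR) without D10 replicate 1 and 0 genes without either D0 library. For D10 against D7 it gave 0 to 47 genes, again 47 without D10 replicate 1. The cause of these shifts was not tested.

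All 9 changes of sign came from leaving out 1 library, in values that were not called. The log2 fold changes ranged over -0.19 to 0.34 for PTGS1, -0.75 to 1.71 for PTGS2, -0.66 to 0.21 for PTGES and -0.10 to 0.61 for PTGFR at D4, over -0.051 to 0.47 for PTGS1 and -0.85 to 0.0081 for PTGES at D7, and over -0.50 to 0.34 for PTGER4 between D7 and D10. The median of all genes moved by under 0.1 on the log2 scale with DESeq2's size factors. Low counts limited PTGIS and HPGD, and 2 libraries per group limit every test.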

Other observations

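Genes that answer to cyclic AMP, the messenger of EP2 and EP4, were followed as a further list of 12, of which 11 were tested. With the replicate block 2 rose at D10 and 0 fell, 0 were called by edgeR on groups, 4 had an unadjusted p under 0.05 and DESeq2 called 2. Over all genes the shares were 2.54% higher and 2.45% lower with the block, 0.29% on groups, 7.94% at an unadjusted p under 0.05 and 2.83% by DESeq2. The median log2 fold change was 0.94, against 0.00 over all genes. At D10, 7 of the 11 were higher than D0 in both experiments and 1 was lower in both. The share of all genes with such agreement was not computed, so these counts do not set the list apart from other genes. The lower gene was SIK1, at 0.922 and 0.582 CPM at D0 and 0.158 and 0.473 at D10. These levels rest on 11 and 8 reads at D0 and 2 and 6 at D10. Since 85.5% of its 50-base words occur in other genes, SIK1B first, its counts are uncertain. Some genes of the list differed more between experiments than between media. In experiments 1 and 2 at D0, FOS had 0.587 and 265 CPM, NR4A1 3.69 and 48.1, and DUSP1 64.4 and 212. Whether this has a part in the differences given here was not tested. NR4A2, a nuclear receptor of the immediate early class, had 2.68, 13.5, 18.3 and 55.0 CPM in experiment 1, and 6.92, 23.9, 53.8 and 153 CPM in experiment 2. It was higher in every later medium than in D0 of the same experiment, and was called with the block at D4 (edgeR adjusted p of 0.0164), D7 (0.00568) and D10 (5.3e-05); on groups the D10 value was 0.0744. AREG, which encodes the EGF receptor ligand amphiregulin, had 3.02, 11.9, 14.7 and 31.1 CPM in experiment 1, and 1.97, 16.1, 48.5 and 87.2 CPM in experiment 2. Its blocked edgeR adjusted p was 0.107 at D4, 0.0177 at D7 and 0.00227 at D10, and 0.0597 on groups at D10.

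The other branch of arachidonic acid use, which leads to leukotrienes, was followed as a list as well. Of 8 genes of this list with a row, 3 passed the filter, and 0 were called at D10 by edgeR on groups, with the block or by DESeq2, with 0 at an unadjusted p under 0.05. The largest change was that of LTB4R, the leukotriene B4 receptor, with 13 and 46 reads at D0 and 21 and 97 at D10, a log2 fold change of 1.06 with an edgeR adjusted p of 0.987. Its exons overlap those of LTB4R2.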
